A study of Mus with 14 samples.

Results

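Lymphoid priming is the low-level expression of lymphoid genes in stem and progenitor cells before the B or T cell programme is in place. Such cells gain the surface receptor Flt3, later the receptor Il7r and the recombination enzyme Dntt, while transcription factors of the Ikaros family, Satb1 and the E protein Tcf3 (also called E2A) help to open lymphoid genes, and Notch1 signalling directs cells towards the T lineage. The 8 genes described here, Flt3, Il7r, Dntt, Notch1, Ikzf1, Ikzf2, Satb1 and Tcf3, were taken by name from the 32285 genes listed in each count matrix, and all 8 were found. They were followed in single bone marrow cells of 14 mice, with most weight on early progenitors, the 16952 of 66895 kept cells that carried stem and progenitor transcripts, passed no list of committed lineage markers and held no transcript of Cd79a, a subunit of the B cell receptor complex. A further 3729 cells held at least 1 Cd79a transcript and were set apart.

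Positions are those of the RefSeq genes of assembly GRCm38.p6, the build named in the submitters' processing notes, matched by symbol for 8 of 8 genes. The cytokine receptors are Flt3 (ENSMUSG00000042817, chr5:147330741-147400489), the receptor tyrosine kinase for Flt3 ligand, and Il7r (ENSMUSG00000003882, chr15:9506159-9529941), the alpha chain of the interleukin 7 receptor. Dntt (ENSMUSG00000025014, chr19:41029275-41059525) encodes terminal deoxynucleotidyl transferase, which adds untemplated bases at antigen receptor joints. Notch1 (ENSMUSG00000026923, chr2:26457902-26503822) is the Notch receptor required for T cell commitment. Ikzf1 (ENSMUSG00000018654, chr11:11684962-11772930) and Ikzf2 (ENSMUSG00000025997, chr1:69531207-69687351) encode the zinc finger factors Ikaros and Helios. Satb1 (ENSMUSG00000023927, chr17:51736187-51833290) encodes a chromatin organiser and Tcf3 (ENSMUSG00000020167, chr10:80409541-80433976) an E protein needed for early B cell development. The spans of Flt3, Notch1 and Ikzf1 overlap 1, 2 and 1 other RefSeq genes, and whether counting used strand is not given in the sources used here, so reads shared with those neighbours cannot be told apart.

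Every mouse had received donor marrow that carried the Mx-Cre recombinase, which poly(I:C) injection induces in blood cells and also in other interferon-responsive cells. The 3 control mice are labelled with the recombinase alone and called MxCre. The 4 Dnmt3a mice carried cells with a change in the DNA methyltransferase gene Dnmt3a, the 3 Dnmt3a;Tnfr1KO mice are labelled as also lacking tumour necrosis factor receptor 1, and the 4 Dnmt3a;Tnfr2KO mice as also lacking receptor 2. The alleles are not described. Donor CD45.2+ marrow was mixed with CD45.1+ competitor marrow, recombination was induced after the primary transplant, and marrow of the primary recipients was passed to lethally irradiated aged recipients, which were examined 20 weeks later. Lineage-negative, Kit-positive, CD45.2+ cells were sorted and 1 library was made per mouse. Several mice of a group may trace back to the same primary host, which is not recorded, so p-values measure only the spread between these mice, part of which may be technical. The series title frames the comparison as the receptor that sets stem cell fitness against the receptor that sets lineage output in Dnmt3a-mutant haematopoiesis.

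The libraries held 3042 to 9724 barcodes and 62416022 to 162869740 unique molecular identifiers (UMIs, counted transcripts), and 1924 to 7265 cells were kept per library after filters and removal of 31 to 480 called doublets. No pair of libraries shared more than 17 barcodes, at most 0.358% of the smaller one. Dnmt3a replicate 1 stood apart, with 26.5% of its barcodes kept, and 44.9% of the cells of Dnmt3a replicate 4 were Cd79a-positive, against 0.262% to 13.2% elsewhere. In all Cd79a-negative cells Tnfrsf1b, which encodes receptor 2, had 3.93 to 5.45 CPM (UMIs of the gene in 1000000 UMIs of the same cells of a library) in the Dnmt3a;Tnfr2KO libraries and 12.97 to 19.1 in Dnmt3a, and was lower in the former (edgeR adjusted p = 5.67e-04). Tnfrsf1a, which encodes receptor 1, had 33.8 to 37.98 CPM in the libraries labelled Dnmt3a;Tnfr1KO and 38.7 to 66.1 in Dnmt3a (edgeR adjusted p = 0.480). In MxCre it had 41.1 to 46.5 and in Dnmt3a;Tnfr2KO 39.2 to 63.97, so the 3 labelled libraries were the lowest of all 14, by a margin that passed no test against Dnmt3a. The label is thus not settled by the transcript level, and the libraries are called Tnfr1KO-labelled from here on. Dnmt3a transcripts averaged 32.4 ± 4.22 CPM in Dnmt3a and 25.2 ± 4.84 in MxCre (SD, n = 4 and 3), a log2 difference of 0.30 (edgeR adjusted p = 0.0944). The labels do not say how the alleles change these genes, so transcript counts may not show a loss.

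Cells were classed by UMIs of 10 short marker lists with 60 genes, none of which holds any of the 8 genes. A cell passed a committed list with at least 3 marker UMIs at a density at or above the mean of that list over libraries, and an early progenitor passed none and had at least 2 UMIs of 9 stem and progenitor genes (Cd34, Hlf, Mecom, Meis1, Hoxa9, Mycn, Adgrg1, Angpt1 and Procr), at 3 or more in 10000 UMIs. The early class held all 9 of these genes in every library. Transcripts of committed lineages were not absent from it. Of the granulocyte list, Prtn3 had 467772 UMIs and Elane 161023, with medians of 1529 and 534 CPM. The highest median of the 9 stem and progenitor genes was 329, for Cd34. Thresholds differed between lists, with 91.2 UMIs in 10000 for the granulocyte and 0.0443 for the dendritic list. B-lineage transcripts were found too. Vpreb1, a part of the pre-B cell receptor, had 765 UMIs and Rag2, of the recombinase, 277, each found in all 14 libraries; Vpreb3 had 102, Ebf1 73 and Rag1 26, at 0 in 4, 1 and 8 libraries, and Pax5, the factor that commits cells to the B lineage, had 5, at 0 in 11. The classes are ranges along marker density: 2430 early cells (14.3%) lay within 80% to 100% of a committed threshold, and 519 of the 3729 Cd79a-positive cells (13.9%) had exactly 1 Cd79a UMI. Of the 66895 kept cells, 10671 (16.0%) passed more than 1 committed list. Unless Cd79a-positive, such cells were classed by the list with the highest ratio to its mean. Early cells were 6.12% to 40.9% of a library, with group means of 29.9% ± 9.48 in MxCre, 23.9% ± 11.9 in Dnmt3a, 19.2% ± 3.14 in Tnfr1KO-labelled and 28.4% ± 4.42 in Dnmt3a;Tnfr2KO (SD, n = 3, 4, 3 and 4). Levels are CPM of the cells of that class in a library, and classes with under 20 cells in a library were left out there. A level can differ because fewer cells of a class express a gene or because each holds less of it.

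Levels are ordered over 10 classes; T and NK cell-marked cells, with at least 20 cells in 2 libraries only, and the 1823 cells that passed no list are outside this order and are given after it. Within it, Flt3 was high in dendritic-marked and early cells, Ikzf2 in early, eosinophil-marked and basophil/mast cell-marked cells, Il7r and Dntt in Cd79a-positive cells, and Ikzf1 and Tcf3 were spread over every class. Flt3 was highest in dendritic-marked cells, with 91.9, 132 and 148 CPM as lowest, median and highest of 5 libraries, which did not overlap any other class. Next came early cells with an Hlf UMI (17.3, 32.1 and 65.3, 14 libraries) and without one (8.74, 24.9 and 85.9), then monocyte-marked cells (median 16.9), whose ranges overlapped. Granulocyte-marked and erythroid-marked cells had medians of 1.28 and 0.177, at the bottom of the order.

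Il7r had medians of at most 0.206 CPM outside Cd79a-positive and dendritic-marked cells in this order. It had 4.36, 33.95 and 375 CPM as lowest, median and highest of the 11 libraries with enough Cd79a-positive cells and 0, 18.1 and 50.7 in dendritic-marked cells, 2 ranges that overlapped. Dntt followed the Cd79a-positive class too, with 0, 71.7 and 362, but early cells without an Hlf UMI came second with 1.75, 9.72 and 212 followed by those with one at 0.969, 4.88 and 62.9. The ranges of these 3 classes overlapped, and the other 7 classes had medians of at most 1.55.

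Of the ordered classes, Notch1 was highest in monocyte-marked cells (20.5, 22.7 and 34.8, lowest, median and highest of 14 libraries), and its order over the next classes down to basophil/mast cell-marked had overlapping neighbours with medians from 13.99 to 16.7. Megakaryocyte-marked and erythroid-marked cells were lowest, with medians of 2.52 and 1.25. Satb1 was similarly low in those same classes (medians 1.32 and 1.40), which did not overlap the rest, and reached 33.02 in early cells with an Hlf UMI.

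Ikzf2 had its highest medians of the ordered classes in eosinophil-marked (158) and basophil/mast cell-marked cells (141), followed by early cells with (109) and without an Hlf UMI (87.2). The lowest early value without an Hlf UMI, 72.3, lay above the highest erythroid value, 49.5, although single megakaryocyte-marked libraries reached 106. Ikzf1 and Tcf3 were both highest of the ordered classes in erythroid-marked cells (medians 114 and 109), with every neighbouring pair of classes overlapping. In T and NK cell-marked cells of 1 Dnmt3a and 1 Tnfr1KO-labelled library, Il7r had 219 and 102 CPM, Ikzf2 551 and 132, Ikzf1 183 and 148, Satb1 108 and 122 and Notch1 55.6 and 39.5. In these libraries Notch1 and Satb1 lay above the median of every ordered class, while Flt3 had 19.6 and 0, Tcf3 62.1 and 56.0 and Dntt 0 UMIs. In the cells that passed no list, Dntt had 17.6 to 51.5 CPM and Il7r 6.66 to 13.5 in the Tnfr1KO-labelled mice, 0 to 2.86 and 0 to 10.6 in Dnmt3a, and 1.21 to 17.6 and 0 to 2.69 in Dnmt3a;Tnfr2KO, so both ranges overlapped another group. MxCre had no Dntt UMI in these cells and 0 to 4.74 CPM of Il7r.

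**Figure D1:**
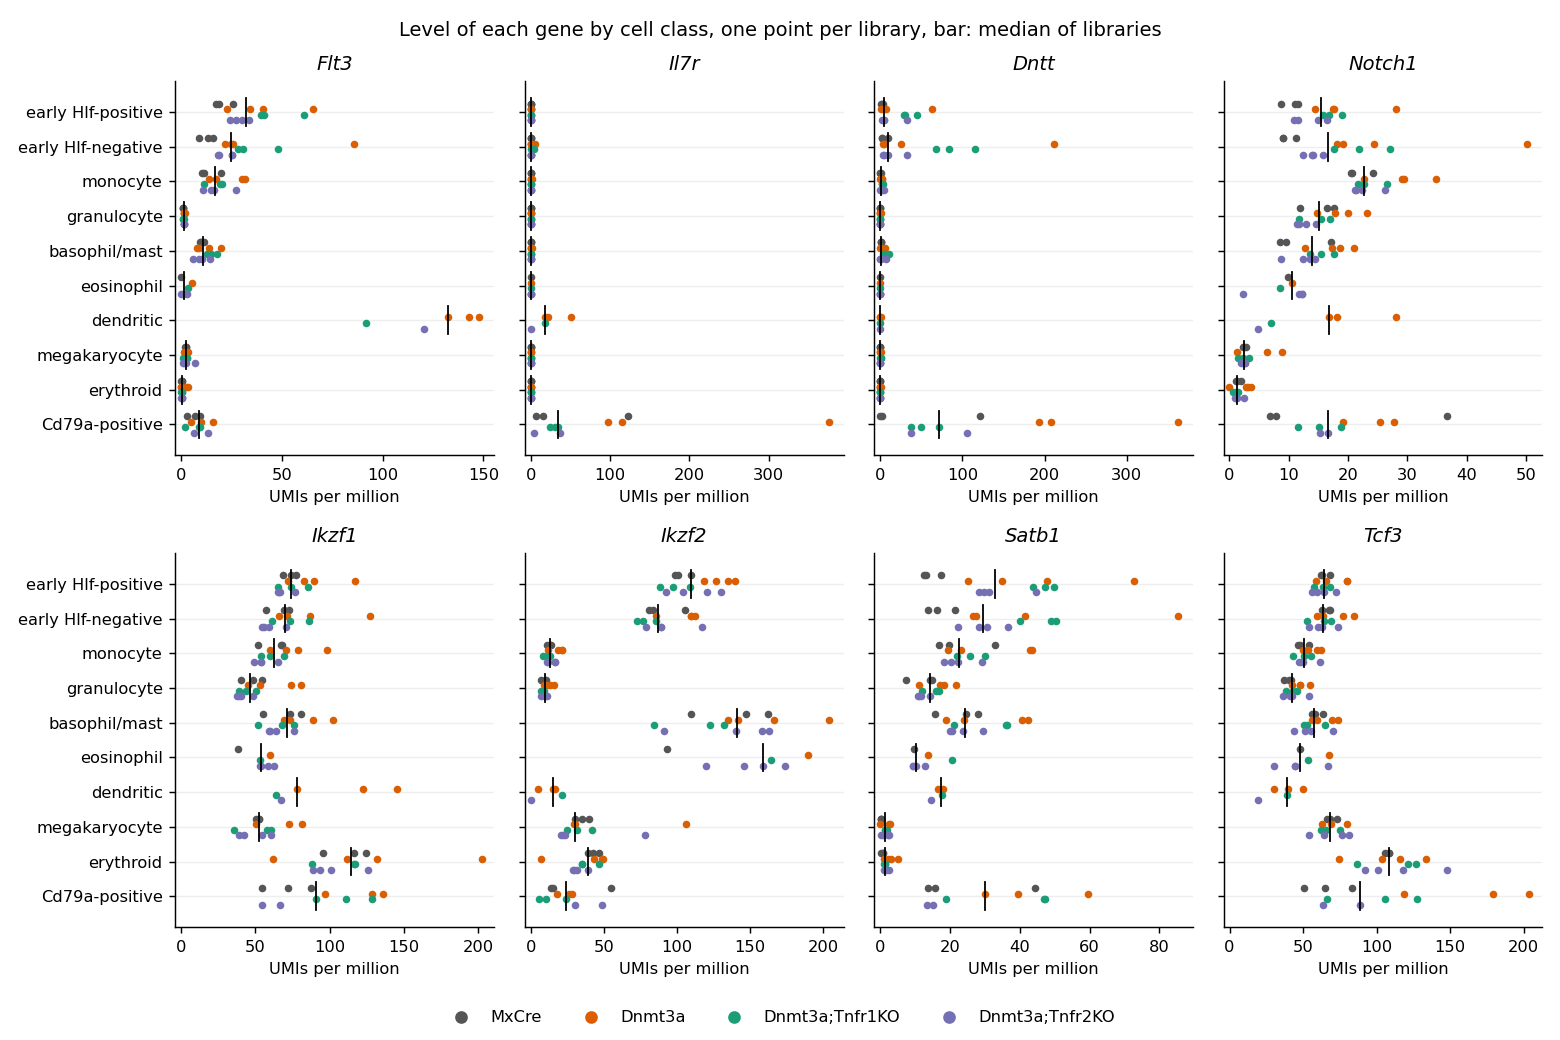
Each panel plots 1 gene, the horizontal axis gives CPM of the class in a library, each point is 1 library coloured by group and the black bar is the median of libraries; horizontal scales differ between panels. Of the 10 classes plotted, Dntt medians are at most 1.55 outside Cd79a-positive and early cells and Il7r medians at most 0.206 outside Cd79a-positive and dendritic-marked cells, whereas Ikzf1 and Tcf3 have points well above 0 in every class.

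Within-mouse contrasts set early progenitors against committed cells of the same animal, with the mouse as a block. Il7r had too few UMIs to be tested there, so 7 genes entered. Against granulocyte-marked cells 7 of 7 were called, 6 higher and 1 lower in early cells, but 84% of all genes tested were called in that contrast, and shares were likewise high against monocyte-marked (6 of 7, 81.6%), megakaryocyte-marked (6 of 7, 52.8%) and erythroid-marked cells (7 of 7, 70.0%). Counts of calls therefore say little about these genes, and the sizes are what distinguish them.

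Ikzf2 was higher in early progenitors in each contrast run, and in every mouse compared. The log2 differences were 3.16 over granulocyte-marked, 2.72 over monocyte-marked, 1.63 over megakaryocyte-marked and 1.38 over erythroid-marked cells. Contrasts with eosinophil-marked and basophil/mast cell-marked cells were not run. There Ikzf2 medians were 158 and 141 CPM, above the 109 and 87.2 of early cells with and without an Hlf UMI. Flt3 was higher by 4.25 over granulocyte-marked cells but only by 0.62 over monocyte-marked cells, where 13 of 14 mice showed the direction. Satb1 was higher by 4.26 over erythroid-marked cells and did not pass over monocyte-marked cells (0.21, edgeR adjusted p = 0.156), though it was called at 0.33 (adjusted p = 0.00995) with classes drawn from thinned cells. Dntt had a median of 5.76 CPM in early cells against 1.55 in monocyte-marked cells and was higher in 14 of 14 mice (log2 3.39).

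Some of the 8 genes were lower in early progenitors. Notch1 was lower than in monocyte-marked cells in 14 of 14 mice, with a log2 fold change of -0.79 (edgeR adjusted p = 3.11e-08), and higher than in erythroid-marked cells in 14 of 14 by 3.13. Against granulocyte-marked cells its CPM was higher in 9 of 14 mice while the fitted change was -0.22 (edgeR adjusted p = 0.0428), so the 2 measures differ in direction. The fitted change uses TMM scaling and CPM do not, and the part of this scaling was not tested. The call against granulocyte-marked cells went above the threshold in 9 of the 14 fits that left out 1 mouse, with edgeR adjusted p up to 0.101. Ikzf1 and Tcf3 were lower than in erythroid-marked cells in 13 of 14 mice each, with log2 fold changes of -0.74 and -0.92.

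Hlf encodes a factor of the most immature cells, and 10253 of the early cells held at least 1 Hlf UMI, 3601 of them exactly 1. Early cells with and without an Hlf UMI of the same mouse were compared over all groups together. Dntt and Notch1 were higher in the cells without one, and Flt3 and Ikzf2 in the cells with one. In all, 5 of the 7 genes tested were called, beside 52.3% of all genes. Median UMIs per cell were 11292 to 31878 in the first set of cells and 9625 to 32095 in the second.

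Dntt was lower in the cells with an Hlf UMI in 13 of 14 mice, with medians of 4.88 against 9.72 CPM and a log2 fold change of -1.30 (SE 0.15, edgeR adjusted p = 2.38e-08). In the mouse with the most, Dnmt3a replicate 1, the cells with an Hlf UMI had 62.9 and those without had 211.6 CPM. The Tnfr1KO-labelled mice had 45.1, 29.3 and 29.8 with and 68.6, 83.7 and 116 without an Hlf UMI in replicates 1 to 3. In MxCre the values were 1.03, 3.81 and 1.76 and 2.29, 1.75 and 9.99, and replicate 2 is the mouse that went the other way.

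Flt3 differed in the opposite direction, being higher with an Hlf UMI in 13 of 14 mice (log2 0.26, edgeR adjusted p = 0.00242). The exception was Dnmt3a replicate 1, with 65.3 CPM with an Hlf UMI and 85.9 without. Ikzf2 was higher with an Hlf UMI in 14 of 14 mice (log2 0.20, adjusted p = 1.45e-05 by edgeR), and Notch1 lower in 12 of 14 (log2 -0.31, adjusted p = 4.23e-04 by edgeR). The Notch1 call ended without cells holding B-lineage transcripts (-0.19, adjusted p = 0.0870 by edgeR). Tcf3 differed by -0.07, with 8 mice one way and 6 the other, and was no longer called under the same exclusion or without the low-count filter (edgeR adjusted p = 0.0805 and 0.105). Satb1 and Ikzf1 did not pass, but Ikzf1, at 0.03, was called at 0.10 (edgeR adjusted p = 2.14e-04) when markers were counted in thinned cells. Il7r had UMIs in 8 mice, with the higher level without an Hlf UMI in 7 of them.

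**Figure D2:**
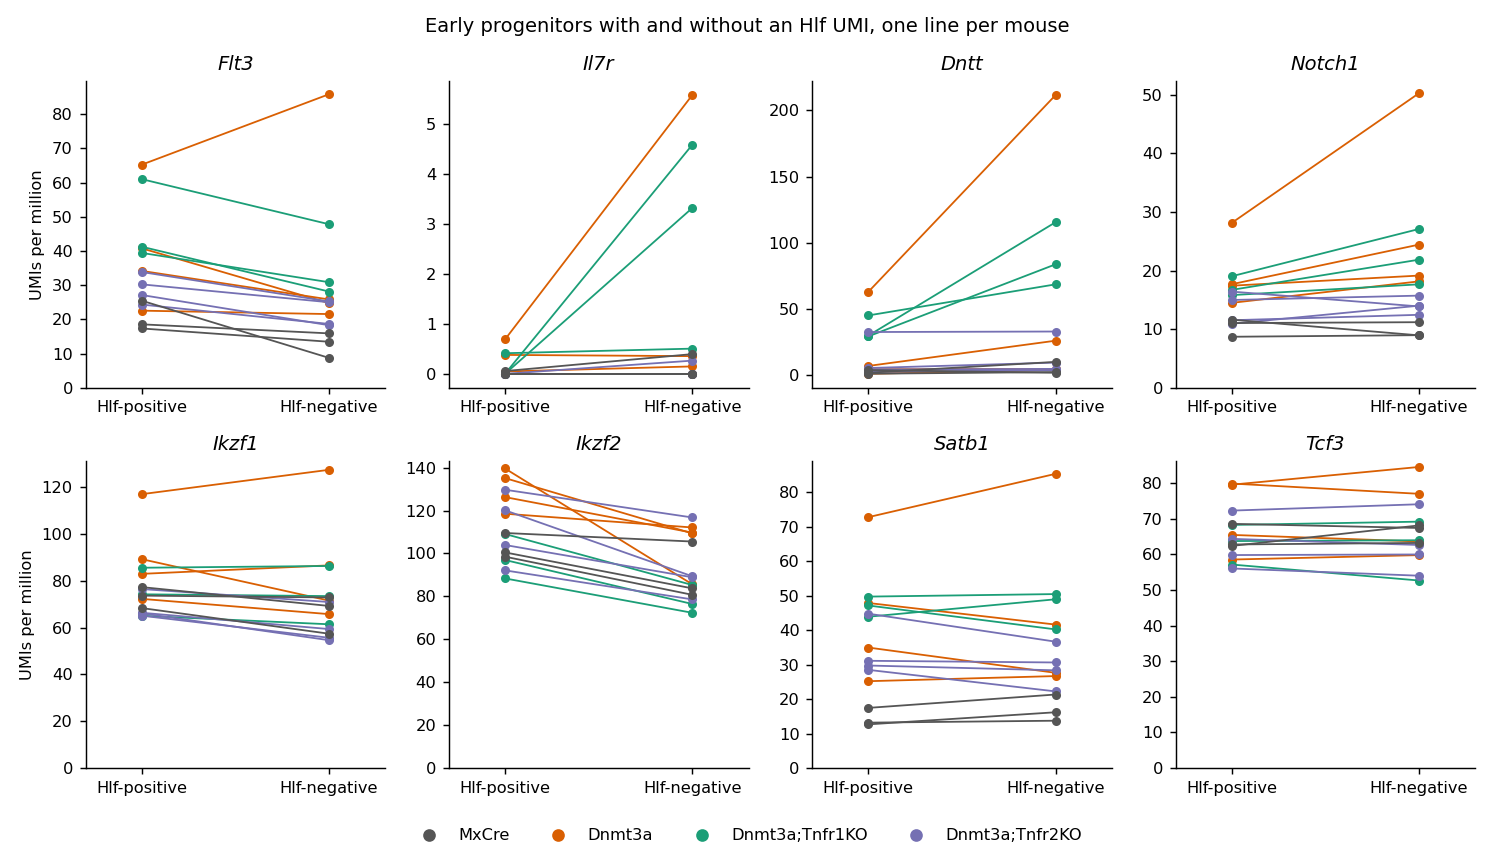
Each panel plots 1 gene, with CPM on the vertical axis for the early progenitors with an Hlf UMI (left) and without one (right); each line is 1 of 14 mice, coloured by group. Lines of Ikzf2 fall from left to right in 14 of 14 mice and lines of Dntt rise in 13 of 14.

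The first comparison between groups was Dnmt3a against MxCre in early progenitors, which shows what the Dnmt3a mutation goes with in these cells. Satb1, Flt3 and Notch1 were higher in Dnmt3a, each with no overlap between the groups, and Dntt was higher in some Dnmt3a mice only. The share of all genes without overlap is not given, here or in later comparisons, so a lack of overlap describes these mice only. Ikzf1, Ikzf2 and Tcf3 did not pass the test. Calls were made for 3 of 8 genes, all higher, beside 13% of the 12909 genes tested. The median log2 fold change was 1.03 over the 8 genes and 0.01 over all genes tested.

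Satb1 had 13.4, 18.5 and 13.7 CPM in MxCre replicates 1 to 3 and 75.4, 46.2, 25.8 and 33.02 in Dnmt3a replicates 1 to 4. All 4 Dnmt3a values lay above the MxCre values, with replicate 1 highest. The means were 15.2 ± 2.89 and 45.1 ± 21.9 (SD, n = 3 and 4), and the fitted log2 fold change was 1.50 (SE 0.26, edgeR adjusted p = 0.00377). It stayed called without any single mouse of either group, at 1.20 to 1.69.

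Notch1 had 8.80, 11.1 and 10.8 CPM in MxCre and 32.7, 17.9, 15.9 and 19.4 in Dnmt3a, again without overlap and with Dnmt3a replicate 1 highest. The log2 fold change was 1.00 (SE 0.18, edgeR adjusted p = 0.00530), and 0.78 without Dnmt3a replicate 1. The call held in each fit that left out 1 mouse of these groups.

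Flt3 had 15.9, 20.8 and 17.8 CPM in MxCre and 69.5, 36.6, 22.2 and 32.0 in Dnmt3a. Dnmt3a replicate 3, at 22.2, was just above the highest MxCre mouse, at 20.8. The log2 fold change was 1.07 (SE 0.26, edgeR adjusted p = 0.0183). The call was lost without MxCre replicate 1, 2 or 3, at adjusted p of 0.0521, 0.0527 and 0.0877 by edgeR, and the change was 0.72 without Dnmt3a replicate 1.

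Dntt had 1.51, 3.24 and 4.19 CPM in MxCre and 93.5, 11.9, 2.13 and 4.46 in Dnmt3a. Replicate 1 held 1709 of the 2052 Dntt UMIs of the Dnmt3a early cells, and replicate 3 lay within the MxCre range. The log2 fold change of 3.13 (SE 1.12) did not pass (edgeR adjusted p = 0.0759), was 1.03 without Dnmt3a replicate 1 (adjusted p = 0.450), and passed without Dnmt3a replicate 3 (3.53, adjusted p = 0.0446).

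Ikzf2 had 94.1, 108 and 93.3 CPM in MxCre and 128, 117, 125 and 122 in Dnmt3a, which did not overlap, with a log2 difference of 0.26 (edgeR adjusted p = 0.153). Ikzf1 averaged 70.8 ± 5.87 and 89.3 ± 21.0, and Tcf3 65.1 ± 2.80 and 70.9 ± 10.7 (SD, n = 3 and 4), with adjusted p of 0.184 and 0.786 by edgeR. The ranges of both genes overlapped between the groups.

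**Figure D3:**
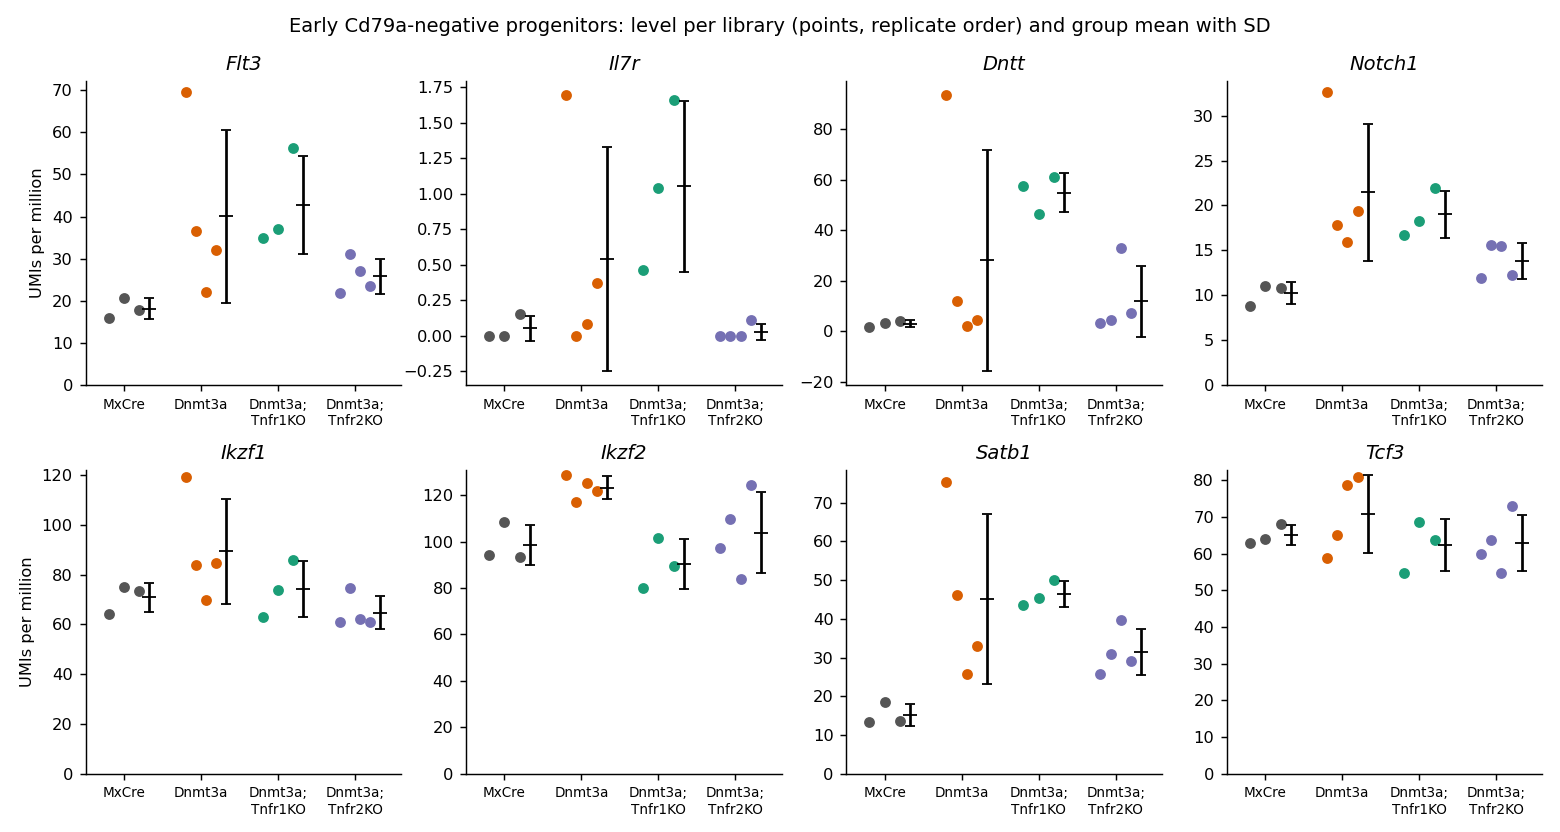
Each panel plots 1 gene in early Cd79a-negative progenitors, with CPM on the vertical axis; points are libraries in replicate order, and the bar beside them is the group mean with its SD (n = 3, 4, 3 and 4). Satb1, Notch1 and Flt3 sit lowest in MxCre, and the 3 Tnfr1KO-labelled points of Dntt lie at 46.3 to 60.9.

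Marker content of the early class differed between the same groups. The 6 lymphoid genes Rag1, Rag2, Ebf1, Pax5, Vpreb1 and Vpreb3 summed to 2.13 to 2.96 CPM in MxCre, 4.26 to 16.3 in Dnmt3a, 3.62 to 4.59 in Tnfr1KO-labelled and 2.25 to 3.88 in Dnmt3a;Tnfr2KO, so MxCre lay below Dnmt3a without overlap, and 0 to 3 of the 6 were at 0 in a library. Without every cell that held a UMI of any of 8 B-lineage genes, the log2 fold changes of Dnmt3a against MxCre were 1.38 for Satb1, 0.79 for Notch1 and 1.04 for Flt3, all still called by edgeR. The granulocyte list of 7 genes summed to 1196 to 1595 CPM in MxCre and 1997 to 3003 in Dnmt3a, the monocyte list of 6 genes to 46.5 to 63.3 and 83.7 to 99.1, and the megakaryocyte list of 6 genes to 33.5 to 45.0 and 10.3 to 22.2, with no overlap in any of the 3. The basophil/mast list of 4 genes summed to 13.2 to 27.1 and 27.4 to 29.1 and the erythroid list of 6 genes to 21.31 to 24.5 and 4.84 to 21.26, also without overlap but with neighbouring ends. In Tnfr1KO-labelled and Dnmt3a;Tnfr2KO mice the granulocyte, monocyte and megakaryocyte sums were 1679 to 2631 and 2039 to 2988, 71.6 to 93.4 and 67.8 to 102, and 12.95 to 21.1 and 16.8 to 19.4, outside the MxCre ranges. At most 1 gene of the granulocyte or monocyte list and 2 of the megakaryocyte list were at 0 in a library. The part of these myeloid, megakaryocyte and erythroid differences in the results was not tested. Within early cells with an Hlf UMI the log2 fold changes were 1.60 for Satb1, 0.84 for Notch1 and 0.94 for Flt3 (edgeR adjusted p = 0.00185, 0.00960 and 0.0208), 3 of 7 genes called beside 13.4% of all genes. Without an Hlf UMI they were 1.33, 1.41 and 1.41 (edgeR adjusted p = 0.0173, 0.00780 and 0.0334), 3 of 8 beside 6.17%. These fits were added after the levels had been seen, and the difference between both sets of cells was not tested.

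The next comparisons ask what loss of each receptor goes with on the Dnmt3a background. None of the 8 genes was called in Tnfr1KO-labelled against Dnmt3a (background 1.57% of genes), in Dnmt3a;Tnfr2KO against Dnmt3a (0.798%) or in Dnmt3a;Tnfr2KO against Tnfr1KO-labelled (0.287%) by edgeR. At an unadjusted p below 0.05 the counts were 1, 3 and 5 of 8, beside 19.3%, 18.1% and 5.23% of all genes, and DESeq2 called 0, 0 and 0. Each of the 3 groups enters 2 of these comparisons, so the values are given side by side and not set against each other.

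Dntt was high in every Tnfr1KO-labelled mouse, at 57.3, 46.3 and 60.9 CPM, and had 3.03, 4.38, 32.8 and 7.05 in Dnmt3a;Tnfr2KO replicates 1 to 4. These groups did not overlap, Dnmt3a;Tnfr2KO replicate 3 being closest. The share of early cells with an Hlf UMI, in which Dntt was lower, varied too, from 44.4% to 67.0% in Tnfr1KO-labelled, 34.2% to 64.5% in Dnmt3a;Tnfr2KO (lowest in replicate 3), 64.2% to 79.3% in Dnmt3a and 62.1% to 70.5% in MxCre. These shares are of unthinned cells and depend on depth. Median UMIs per early cell were 14996 to 21752, 10109 to 18980 (lowest in replicate 3), 19098 to 31894.5 and 12892 to 18394 in the same order. In cells without an Hlf UMI the 3 Tnfr1KO-labelled mice (68.6 to 116 CPM) again lay above Dnmt3a;Tnfr2KO (3.73 to 32.9), and in cells with one the ranges overlapped (29.3 to 45.1 and 2.46 to 32.5). The log2 fold change of Dnmt3a;Tnfr2KO against Tnfr1KO-labelled was -2.28 (SE 0.93), which did not pass adjustment (edgeR adjusted p = 0.796). With 1 mouse left out it ranged from -3.51, without Dnmt3a;Tnfr2KO replicate 3, to -1.96, and it was not called in any of these fits. The Dnmt3a values ran from below to above both groups, with a log2 difference of 1.20 for Tnfr1KO-labelled (adjusted p = 0.497) and -1.08 for Dnmt3a;Tnfr2KO (adjusted p = 0.566), both by edgeR. Without Dnmt3a replicate 1 these differences were 3.33 and 1.01, and neither passed in any fit that left out 1 mouse.

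Flt3 had 34.98, 37.2 and 56.2 CPM in Tnfr1KO-labelled and 21.8, 31.0, 26.997 and 23.4 in Dnmt3a;Tnfr2KO, with no overlap and a log2 fold change of -0.73 (SE 0.25, edgeR adjusted p = 0.556). Satb1 had 43.5, 45.5 and 49.99 CPM in Tnfr1KO-labelled and 25.7, 30.9, 39.7 and 29.1 in Dnmt3a;Tnfr2KO, a log2 difference of -0.58 (edgeR adjusted p = 0.841). Each difference is in one direction in these mice but did not pass the test over all genes.

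Notch1 had 16.8, 18.3 and 21.9 CPM in Tnfr1KO-labelled and 11.9, 15.6, 15.4 and 12.2 in Dnmt3a;Tnfr2KO. All 4 Dnmt3a;Tnfr2KO values were below all Dnmt3a values, where the lowest was 15.9, and the log2 fold change between these groups was -0.48 (SE 0.16, edgeR adjusted p = 0.143). Ikzf2 had 80.01, 102 and 89.5 in Tnfr1KO-labelled, below all Dnmt3a values, with a log2 difference of -0.29 (edgeR adjusted p = 0.183). Ikzf1 ran from 60.9 to 85.8 and Tcf3 from 54.8 to 73.1 over both receptor groups, and neither passed in any of the 3 comparisons.

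Set directly against MxCre, in comparisons added after the levels had been seen and sharing the same MxCre mice, 3 of 8 genes were called in Tnfr1KO-labelled (background 3.73%) and 1 of 8 in Dnmt3a;Tnfr2KO (background 2.23%). In Tnfr1KO-labelled mice Satb1 was higher by log2 1.72, Flt3 by 1.33 and Notch1 by 0.99 (edgeR adjusted p = 0.00423, 0.0155 and 0.0126), and Dntt, at 4.33, stayed above the threshold (adjusted p = 0.0538). In Dnmt3a;Tnfr2KO Satb1 was higher by 1.14 (edgeR adjusted p = 0.0298), Flt3 by 0.60 (adjusted p = 0.284) and Notch1 by 0.51 (adjusted p = 0.170). Of these Satb1 alone was called. All 3 genes had every Dnmt3a;Tnfr2KO value above every MxCre value, and the share of all genes that did so is not given. Leaving out 1 mouse of the groups compared ended the Flt3 call of Tnfr1KO-labelled in 3 of 6 fits, the Notch1 call in 2 of 6 and the Satb1 call of Dnmt3a;Tnfr2KO in 5 of 7 (adjusted p up to 0.0930, 0.0595 and 0.204 by edgeR).

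**Figure D4:**
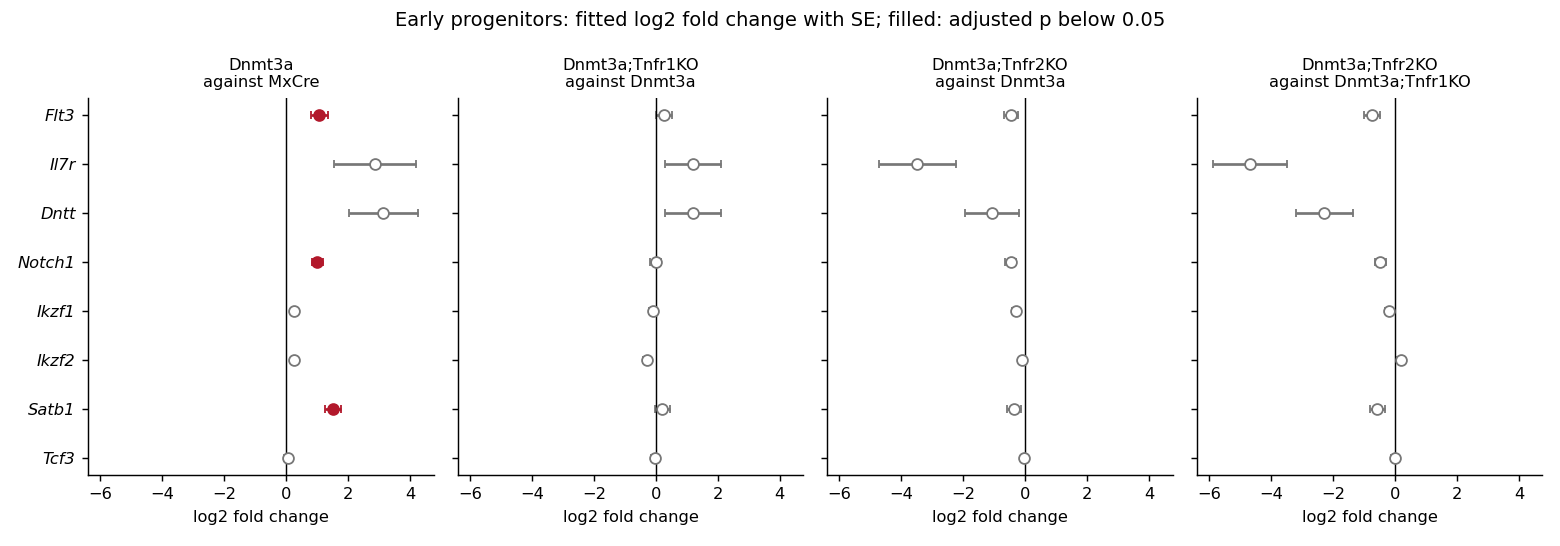
Each panel is 1 comparison in early progenitors; points give the log2 fold change fitted by edgeR (first group over second, horizontal axis), bars its standard error, and filled points an adjusted p below 0.05. The 3 filled points, Flt3, Notch1 and Satb1, are all in Dnmt3a against MxCre, and Il7r and Dntt have the widest bars.

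To compare how many cells express each gene at one depth, every early cell was reduced at random to 5000 UMIs, leaving out 61 shallower cells in Dnmt3a, 154 in Tnfr1KO-labelled, 390 in Dnmt3a;Tnfr2KO and 90 in MxCre. At that depth a Dntt UMI was found in 0.477%, 0.780% and 0.905% of early cells of MxCre replicates 1 to 3 and in 10.0%, 2.16%, 0.954% and 2.50% of Dnmt3a replicates 1 to 4. It was found in 8.54%, 6.49% and 8.70% of Tnfr1KO-labelled and in 1.06%, 1.45%, 8.78% and 1.69% of Dnmt3a;Tnfr2KO early cells. The Tnfr1KO-labelled mice, Dnmt3a replicate 1 and Dnmt3a;Tnfr2KO replicate 3 were thus the high ones, and the remaining 9 mice were at or below 2.50%. In erythroid-marked cells, which should lack Dntt, the share was 0% in 11 of 14 libraries and at most 1.03%, and the medians of unthinned UMIs per cell over libraries were 18687 in early and 16298.5 in erythroid-marked cells. Unthinned, the shares of early cells were 1.65% to 1.82%, 1.58% to 18.0%, 11.9% to 15.8% and 2.22% to 12.4% in the order MxCre, Dnmt3a, Tnfr1KO-labelled and Dnmt3a;Tnfr2KO. Intervals for such shares cover counting error only: the exact 95% binomial interval was 7.63% to 12.9% in Dnmt3a replicate 1 and 0.192% to 0.980% in MxCre replicate 1.

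The same count for Flt3 gave 6.74% to 9.05% of thinned early cells in MxCre, 10.4% to 24.0% in Dnmt3a, 15.1% to 20.0% in Tnfr1KO-labelled and 9.25% to 15.4% in Dnmt3a;Tnfr2KO, against at most 0.515% of erythroid-marked cells in any library. Satb1 was found in 5.20% to 9.05%, 11.3% to 28.3%, 16.3% to 19.5% and 10.7% to 18.4% in the same order, and Notch1 in 3.81% to 5.71%, 6.61% to 13.4%, 7.27% to 8.70% and 5.57% to 7.70%, with at most 2.06% and 3.61% in erythroid-marked cells. Unthinned, Flt3 was found in 17.6% to 21.7% of MxCre and 28.2% to 51.0% of Dnmt3a early cells, Satb1 in 12.7% to 19.5% and 31.5% to 65.4%, and Notch1 in 13.2% to 15.5% and 24.4% to 47.6%. In unthinned erythroid-marked cells of any library these 3 genes reached at most 5.47%, 11.8% and 8.37%. Median unthinned UMIs per early cell were 12892 to 18394 in MxCre and 19098 to 31894.5 in Dnmt3a, which did not overlap. The unthinned shares of these genes and of Dntt are thus not at one depth. Ikzf1 and Tcf3 were found in a larger share of thinned erythroid-marked cells (medians 39.7% and 39.5%) than of early cells (29.0% and 26.6%).

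Dntt transcripts were held by few cells. In Dnmt3a replicate 1, 38 of 555 early cells had 10 or more Dntt UMIs and together held 90.7% of the 1709 UMIs, with 178 in a single cell. In the Tnfr1KO-labelled mice 33, 22 and 23 cells with 10 or more held 74.0%, 80.8% and 72.3% of the Dntt UMIs. In Dnmt3a;Tnfr2KO replicate 3, 8 such cells held 27.5% and 103 cells had 2 or more. A count of 10 UMIs depends on depth, and the early cells of that library had the lowest median, 10109 UMIs, against 31575 in Dnmt3a replicate 1 and 14996, 21752 and 19698 in the Tnfr1KO-labelled mice. MxCre mice had 1, 1 and 2 cells with 10 or more.

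In the 8 libraries with at least 20 early cells that held 2 or more Dntt UMIs (21 to 103 cells), these cells were set beside the early cells without a Dntt UMI, as a description. The libraries are Dnmt3a replicates 1 and 2, Tnfr1KO-labelled replicates 1 to 3 and Dnmt3a;Tnfr2KO replicates 2 to 4. No MxCre library is among them, with 6, 5 and 9 such cells in replicates 1 to 3. Satb1 was higher in the Dntt-positive cells in 8 of 8 libraries, at 82.4 to 212 (median 129) CPM against 27.02 to 49.6 (median 33.9). Flt3 was higher in 8 of 8, at 83.7 to 264 (median 127) against 20.2 to 34.2 (median 27.2). Notch1 was higher in 8 of 8, at 29.6 to 93.8 (median 58.2) against 11.4 to 21.1 (median 14.7).

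In these 8 libraries, none of them MxCre, Dntt-positive early cells therefore held more transcripts of both surface receptors Flt3 and Notch1 and of Satb1. Ikzf1 was also higher in 8 of 8 libraries, at 94.9 to 192 (median 115) CPM against 57.7 to 105 (median 71.7). Ikzf2 went the other way and was lower in 8 of 8, at 27.9 to 86.0 (median 56.6) against 83.8 to 141 (median 108). Tcf3 was higher in 6 of 8, at 47.4 to 78.6 (median 66.3) against 54.0 to 73.4 (median 62.6), ranges that overlapped. Il7r had UMIs in the Dntt-positive cells of 5 of 8 libraries.

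These cells were deeper, with medians of 11977 to 37371 UMIs against 9936 to 29941, and 40.8% to 66.7% of them held an Hlf UMI against 33.5% to 81.5%. In cells thinned to 5000 UMIs, the share with a UMI was higher in the Dntt-positive cells in 8 of 8 libraries for Flt3 (median 45.8% against 13.4%), Satb1 (52.2% against 14.8%), Notch1 (24.0% against 6.43%) and Ikzf1 (42.6% against 28.9%). For Ikzf2 it was higher in 1 of 8 (21.9% against 40.4%) and for Tcf3 in 4 of 8.

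**Figure D5:**
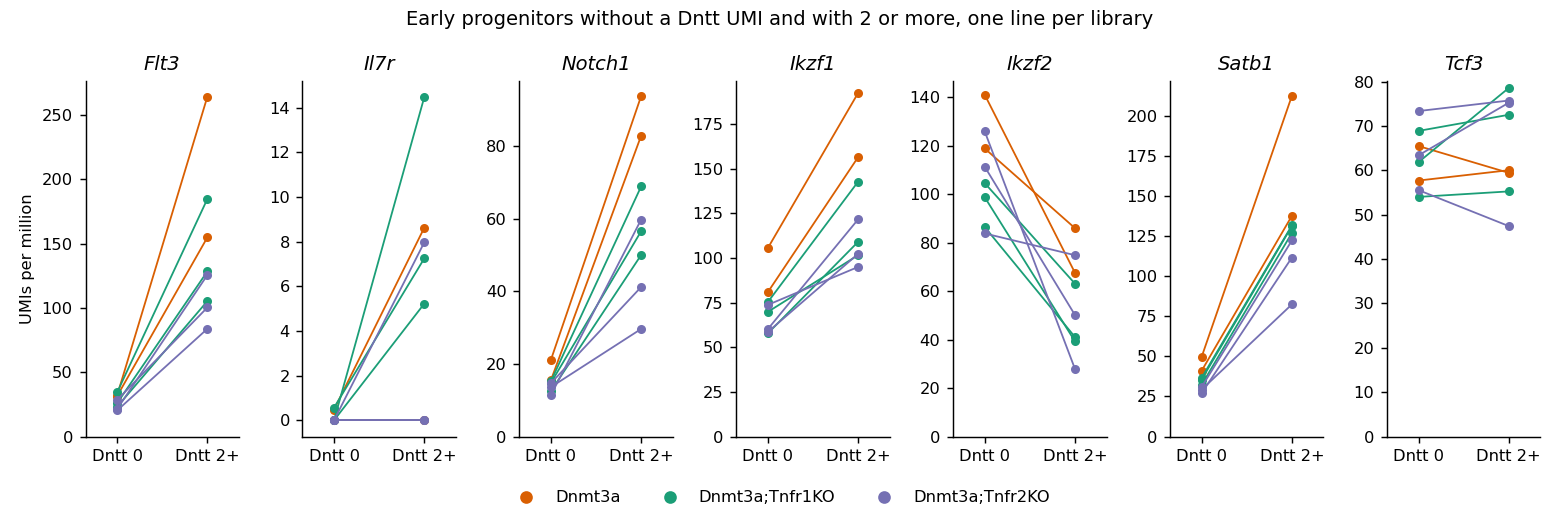
Each panel plots 1 gene, with CPM on the vertical axis for early progenitors without a Dntt UMI (left) and with 2 or more (right). Each line is 1 of the 8 libraries with at least 20 cells of the second kind, none of them MxCre. Lines of Flt3, Notch1, Ikzf1 and Satb1 rise in 8 of 8 libraries and lines of Ikzf2 fall in 8 of 8.

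Il7r was all but missing from early progenitors. It had 4 UMIs in 2 of 3967 MxCre early cells, all from replicate 3, and 4 UMIs in 1 of 7219 Dnmt3a;Tnfr2KO cells. Dnmt3a early cells held 38 UMIs in 15 of 3384 cells, of which replicate 1 gave 31 in 9 cells and replicate 2 none. Tnfr1KO-labelled mice held 7, 19 and 21 UMIs in 5, 7 and 5 cells, so UMIs were found in every library of that group and in 1 of 3 MxCre libraries. With 0 of 1487 cells in MxCre replicate 1 and 0 of 1934 in Dnmt3a;Tnfr2KO replicate 1, a count of 0 (taken as under 3 counts) allows a share of cells with an Il7r UMI of up to 0.202% and 0.155%, which limits cells with a UMI and not cells that express the gene. Erythroid-marked cells held 4 Il7r UMIs in Dnmt3a and 0 in each other group. In Dnmt3a replicate 4, 0.816% of thinned erythroid-marked cells and 0% of thinned early cells held one. With the low-count filter no comparison of Il7r passed (edgeR adjusted p = 0.166 for Dnmt3a against MxCre and 0.225 for Dnmt3a;Tnfr2KO against Tnfr1KO-labelled). Without that filter the second was called (log2 -4.70, edgeR adjusted p = 0.0266).

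Many Il7r and Dntt UMIs lay in Cd79a-positive cells, most of them in 1 mouse. Over all kept cells, 95.4% of 12525 Il7r UMIs and 63.8% of 19215 Dntt UMIs lay in Cd79a-positive cells, against 1.71% for Flt3, 1.27% for Ikzf2 and 4.36% to 8.09% for the other 4 genes. The 2436 Cd79a-positive cells of Dnmt3a replicate 4 held 11025 of the Il7r and 10643 of the Dntt UMIs. Without this library, left out after the shares had been seen, 73.7% of 1255 Il7r and 19.1% of 8457 Dntt UMIs lay in Cd79a-positive cells. By library the Il7r share ran from 13.3% to 97.8% and was at most 50% in 8 of 14. In 12 of 14 libraries early cells held most of the Dntt UMIs, 50.5% to 82.5% of them, with 76.9%, 75.4% and 81.5% in the Tnfr1KO-labelled mice. The exceptions were Dnmt3a replicate 4, with 0.446% in early and 98.9% in Cd79a-positive cells, and Dnmt3a replicate 3, with 12.6% and 83.9%.

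Within Cd79a-positive cells Il7r had 114, 97.0 and 375 CPM in Dnmt3a replicates 1, 3 and 4 and 24.6, 33.95 and 30.2 in Tnfr1KO-labelled replicates 1 to 3. Dntt had 194, 208 and 362 and 37.9, 50.2 and 71.7 in the same mice, so both genes were higher in each of these Dnmt3a mice than in each Tnfr1KO-labelled mouse. MxCre values ranged from 6.85 to 122 for Il7r and from 0 to 120.9 for Dntt over 29 to 76 cells per mouse. These cells were not compared between groups by a test, since 3 libraries held under 20 of them.

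Over all Cd79a-negative cells, the 3 genes called in early progenitors were also called in Dnmt3a against MxCre (3 of 8, beside 2.92% of 15434 genes). Satb1 was higher by log2 1.15, Notch1 by 0.84 and Flt3 by 1.14 (edgeR adjusted p = 0.0250, 0.0250 and 0.0469). Satb1 averaged 11.96 ± 2.41 CPM in MxCre and 28.0 ± 10.5 in Dnmt3a, Notch1 11.2 ± 2.05 and 21.1 ± 4.74, and Flt3 7.68 ± 1.46 and 18.1 ± 9.13 (SD, n = 3 and 4). The mix of classes differed between these groups. Of kept cells, megakaryocyte-marked cells were 9.62% to 19.6% in MxCre and 0.350% to 7.53% in Dnmt3a. Erythroid-marked cells were 10.9% to 21.9% and 2.34% to 16.0%, and monocyte-marked cells 7.70% to 11.7% and 9.77% to 24.9%. The part of this mix in the pooled levels was not tested. Leaving out 1 mouse ended the call of Flt3 and Notch1 in 5 of 7 fits each and of Satb1 in 4 of 7, with adjusted p up to 0.160 by edgeR. With replicate number as a block, Notch1 and Flt3 were not called (edgeR adjusted p = 0.0545 and 0.0561). Leaving out every cell with a UMI of any of 8 B-lineage genes ended all 3 calls. Under that exclusion the log2 fold changes were no smaller, at 1.31, 1.06 and 1.23 (edgeR adjusted p = 0.0856, 0.160 and 0.0856), and 5 of all genes were called in place of 450. None of the 8 genes was called in Tnfr1KO-labelled against Dnmt3a (background 0.356%), Dnmt3a;Tnfr2KO against Dnmt3a (0.577%) or Dnmt3a;Tnfr2KO against Tnfr1KO-labelled (0.227%) by edgeR, with 0, 3 and 1 of 8 at an unadjusted p below 0.05, beside 17.7%, 19.1% and 3.67% of all genes. In the second of these DESeq2 called 1 and in the others 0 and 0.

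A list of 50 partner genes of these pathways was followed in the same early cells, 43 of which had enough UMIs to be tested. In Dnmt3a against MxCre 5 were called higher and 4 lower (9 of 43, against the 13% of all genes), and the median log2 fold change was -0.07 over the 43. Among the calls of greatest size Socs2, a feedback inhibitor of cytokine signalling, fell from 22.6 ± 13.3 to 1.65 ± 0.658 CPM (SD, n = 3 and 4, log2 -3.80, edgeR adjusted p = 0.0106), and the Notch target Hes1 fell from 2.18 ± 0.525 to 0.508 ± 0.269 (-2.17). Irf8, a factor of dendritic and monocyte cells, rose from 14.4 ± 3.43 to 38.8 ± 4.15 (1.33), and Emb from 120.1 ± 13.6 to 268 ± 57.1 (1.08). Plac8 and Spi1 also rose, and Gata3 and Notch2 fell, by log2 0.52, 0.52, -0.95 and -0.67. Nrarp, another Notch target, was not called (3.03 ± 0.261 and 3.26 ± 0.316 CPM, log2 0.05, edgeR adjusted p = 0.927).

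In Tnfr1KO-labelled against Dnmt3a 3 of the 43 partner genes were called, beside 1.57% of all genes. Tcf7, a factor of early T lineage cells, rose from 0.489 ± 0.162 to 2.15 ± 0.287 CPM (SD, n = 4 and 3, log2 2.29, edgeR adjusted p = 0.00316), and the Notch target Nrarp fell from 3.26 ± 0.316 to 1.28 ± 0.145 (-1.18, adjusted p = 0.0434). Marker content of the early class differed here as well: the T/NK list of 7 genes summed to 0.324 to 0.602 CPM in Dnmt3a and 0.656 to 1.03 in Tnfr1KO-labelled, and the list of 9 stem and progenitor genes to 1148 to 1358 and 938 to 1088, neither overlapping. In Dnmt3a;Tnfr2KO these sums were 0.276 to 0.694 and 909 to 1156, and in MxCre 0.269 to 1.24 and 1149.9 to 1473. Of the T/NK list 2 to 5 genes were at 0 in a library, Cd3e and Ncr1 each in 13 of 14, and the part of these differences in the partner gene results was not tested. Id3, an inhibitor of E proteins such as Tcf3, was called too, but its Tnfr1KO-labelled values ran from 0.158 to 6.84 CPM and overlapped those of Dnmt3a at 0 to 0.558. In Dnmt3a;Tnfr2KO against Tnfr1KO-labelled Tcf7 fell to 0.397 ± 0.167 (SD, n = 4, log2 -2.49, edgeR adjusted p = 0.00191) and was the only one of 43 called (background 0.287%). In Dnmt3a;Tnfr2KO against Dnmt3a none was (background 0.798%). Against MxCre, in the added comparisons, 4 of 43 rose and 3 fell in Tnfr1KO-labelled, beside 3.73% of all genes called. In Dnmt3a;Tnfr2KO 3 rose and 1 fell, beside 2.23%. Rag1, Ikzf3 and Lef1, genes of later lymphoid stages, were among the 7 not tested, with 26, 3 and 17 UMIs over all early cells.

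Likeness of pattern was measured as the Pearson correlation of log2 levels (10 CPM added) over 41 points, each a cell class in a group, among 8663 genes that reached 20 CPM at a point; points share libraries and depth, and no p is given. Notch1 and Satb1 were among each other's closest genes (r = 0.897), and Arid5a was among the closest to both. The highest points of both genes, 55.6 and 122 CPM, were T and NK cell-marked points of 1 library each. The genes closest to Flt3 were Nek6 (r = 0.904), 1700025G04Rik (r = 0.854) and H2-DMa (r = 0.843), and those closest to Dntt were Arpp21 (r = 0.861), Uchl1 (r = 0.835) and Bok (r = 0.813). For Il7r they were Ppp1r16b (r = 0.965), Slamf6 (r = 0.948) and Foxo1 (r = 0.935), for Ikzf1 Gramd4 (r = 0.880), Itga4 (r = 0.833) and Resf1 (r = 0.825), for Ikzf2 St6galnac3 (r = 0.852), Ier3 (r = 0.828) and Galnt6 (r = 0.816), and for Tcf3 Bcl7a (r = 0.844), Sapcd1 (r = 0.83) and Hdac7 (r = 0.821). With 10 CPM added, Il7r varied little outside Cd79a-positive, dendritic-marked and T and NK cell-marked cells, so its r values rest on few points.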

How the data were processed

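RNA of sorted bone marrow cells of 14 mice, 1 library each, was counted as UMIs in droplets with a 3' kit. The deposited matrices hold UMI counts of 32285 genes by barcode. The authors used bcl2fastq 2.20.0.422 and Cell Ranger 6.0.0 with mm10 (GRCm38), per the submitters' processing notes. The 8 genes and all lists were chosen with earlier results of these data known, and the thresholds of the cell classes were set after the marker distributions had been seen. Barcodes with at least 1000 UMIs, 500 genes and at most 10% mitochondrial UMIs were kept, and doublets simulated per library were removed at an assumed 0.8% for each 1000 barcodes. Counts were summed by library and class (at least 20 cells in within-mouse contrasts) and tested with edgeR 4.0.16 (quasi-likelihood, TMM factors, low-count filter, 4 groups in one fit, or mouse as a block), with Benjamini-Hochberg adjustment over all genes tested and a threshold of 0.05. Fitted log2 fold changes use TMM scaling, CPM do not. The fit was tested on simulated counts. Alternatives were DESeq2 1.42.0, no low-count filter, doublets kept, cells with any of 8 B-lineage genes left out, markers counted in thinned cells, replicate number as a block, thinning to 2500 UMIs, and leaving out each mouse. Partner genes named were the 5 called with the greatest change in a comparison, 1 of which is not reported here, with the other calls listed, and the 3 genes most like each of the 8 by correlation. Shares with intervals use the exact (Clopper-Pearson) method, and a count of 0 allows up to 3 counts.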

Additional observations from a re-analysis of the deposited data

Results flagged for a closer look

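In the groups of 4 mice, 9 of 32 sets of values held a mouse far from the others (Dixon's gap test at 95%). Chance gives this in about 1 in 20 groups of normally distributed values, which CPM near 0 are not. The Il7r set of early Dnmt3a;Tnfr2KO cells, with 1 value above 0, is flagged by construction, so 9 of 32 cannot be set against that rate. The sets of early cells lie within those of all Cd79a-negative cells, so the 9 are not independent. Dntt in early cells was 93.5 CPM in Dnmt3a replicate 1 against 2.13 to 11.9 in the other Dnmt3a mice, and 32.8 in Dnmt3a;Tnfr2KO replicate 3 against 3.03 to 7.05. The same 2 mice stood apart over all Cd79a-negative cells, at 24.8 and 7.60 CPM. Dnmt3a replicate 1 is the library with the smallest share of its barcodes kept. Ikzf1 was highest in Dnmt3a;Tnfr2KO replicate 2, at 74.6 CPM in early cells and 74.02 over all Cd79a-negative cells, where the other 3 mice lay at 60.9 to 62.0 in early cells. Il7r was 0.110 CPM in early cells of Dnmt3a;Tnfr2KO replicate 4, which rests on 4 UMIs of 1 cell, and 3.33 CPM over the Cd79a-negative cells of Dnmt3a replicate 4, the mouse in which 44.9% of the cells were Cd79a-positive. Ikzf2 was 43.6 CPM over the Cd79a-negative cells of Dnmt3a replicate 4, apart from the other Dnmt3a mice.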

How the results depend on the processing

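In early progenitors, Dnmt3a against MxCre, the calls of Satb1, Notch1 and Flt3 held with DESeq2, without a low-count filter, with doublets kept, with markers counted in thinned cells, without cells holding B-lineage transcripts and with the replicate block; Dntt was also called without a low-count filter (log2 3.09). In Dnmt3a;Tnfr2KO against Tnfr1KO-labelled, 1 of the 8 genes, Il7r, was called without that filter. Over all Cd79a-negative cells, Dnmt3a against MxCre, 0 of 8 were called without B-lineage transcripts, though the log2 values of Satb1, Notch1 and Flt3 (1.31, 1.06 and 1.23) were no smaller, 1 with the replicate block (Notch1 0.80 and Flt3 1.23 were not) and 0 to 3 with 1 mouse left out, and DESeq2 called 1 in Dnmt3a;Tnfr2KO against Dnmt3a. Between early cells with and without an Hlf UMI 3 genes, not Notch1 or Tcf3, were called without B-lineage transcripts. Ikzf1 over monocyte-marked cells was not called under that exclusion or without a filter (log2 0.041 and 0.033), or in 6 of the 14 fits that left out 1 mouse (edgeR adjusted p up to 0.0758).

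Directions that turned were all of changes that had not passed. For Notch1, Tnfr1KO-labelled against Dnmt3a, the log2 values were 0.021 with DESeq2, 0.020 without a filter, 0.0023 with doublets kept, 0.090 without B-lineage transcripts and -0.12 to 0.24 with 1 mouse left out. For Tcf3 they were -0.0094 with the replicate block and -0.015 to 0.18 with 1 mouse left out in Dnmt3a against MxCre, 0.033 and -0.13 to 0.043 in Tnfr1KO-labelled against Dnmt3a, -0.14 to 0.045 in Dnmt3a;Tnfr2KO against Dnmt3a, and in Dnmt3a;Tnfr2KO against Tnfr1KO-labelled -0.0098 with DESeq2, -0.0043 with thinned markers, -0.063 with the replicate block and -0.072 to 0.060 with 1 mouse left out. With 1 mouse left out, Ikzf1 ranged from -0.19 to 0.041 in Tnfr1KO-labelled against Dnmt3a and Dntt from -2.31 to 1.01 in Dnmt3a;Tnfr2KO against Dnmt3a, positive without Dnmt3a replicate 1. Without B-lineage transcripts Satb1 was 0.0059 between cells with and without an Hlf UMI and -0.015 against monocyte-marked cells. The cause was not tested.

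All genes called in early cells, Dnmt3a against MxCre, numbered 316 to 2087 with 1 mouse left out and 1028 without B-lineage transcripts, against 1676. In Tnfr1KO-labelled against Dnmt3a (203) they were 622 with DESeq2, 361 without a filter, 74 without B-lineage transcripts, 114 with the replicate block and 32 to 581 with 1 mouse left out. In Dnmt3a;Tnfr2KO against Dnmt3a (103) they were 519, 265 and 30 to 677 with DESeq2, no filter and 1 mouse left out, and against Tnfr1KO-labelled (37) 75 and 87 with DESeq2 and no filter and 21 without B-lineage transcripts. Against MxCre, with 1 mouse left out, they were 67 to 642 (482) and 45 to 483 (288), the latter 530 with DESeq2. Over all Cd79a-negative cells DESeq2 called 1546, 716, 711 and 79 genes in the 4 comparisons against 450, 55, 89 and 35, exclusion of B-lineage transcripts gave 5, 12, 26 and 16, the replicate block gave 199 in the first, and leaving out 1 mouse gave 1 to 1201, 8 to 119, 34 to 183 and 21 to 34. Same-numbered mice of different groups did not deviate together (19 pairs, correlation -0.19 to 0.17), so the replicate block pairs them by number only. Thinning to 2500 UMIs moved 26 of 32 shares by more than 1 SD between mice, 25 of them down and 1 up (Il7r in Dnmt3a;Tnfr2KO, from 0% to 0.0113%). Depth limits Il7r and Dntt, which rest on few UMIs in most early libraries.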
